A study of Homo sapiens with 38 samples.

Results

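MYC and the MAX dimer network were followed as 10 genes, MYC, MAX, MXD1, MXD3, MXD4, MXI1, MNT, MGA, MLX and MLXIP, taken by name as the rows of these genes in every count table. They were 10 of 50652 gene symbols in the tables of BE2C cells and 10 of 50778 in those of the palbociclib experiment. All 10 passed the filter on low counts in every fit, MYC in the palbociclib experiment only through the lines where it is high, since untreated and treated NB1643 cells held 3 to 44 counts of it. In the GSK-J4 fit MYC passed through the treated libraries, since the 0 h libraries held only 0.304 and 0.197 CPM of it. MYCN was left aside apart from the few values set beside MYC.

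The proteins of this network carry a basic helix-loop-helix leucine zipper and bind E-box DNA in pairs. MAX is the common partner: with MYC it recruits coactivators and raises transcription of growth genes, whereas with the MXD proteins, MXI1, MNT or MGA it recruits corepressors to the same kind of site. MLX pairs with MXD1, MXD4 and MNT and with the glucose-sensing factors MLXIP (MondoA) and MLXIPL (ChREBP), which links the network to sugar metabolism. In neuroblastoma, a tumor of the sympathetic nervous system, MYCN is the amplified family member in many high-risk cases, and cells without that amplification often express MYC in its place.

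The study asked how the H3K27 demethylase KDM6B acts on gene expression in neuroblastoma cell lines, and total RNA was sequenced in 3 experiments. BE2C cells, which carry MYCN amplification, received control siRNA (siCtrl, 2 libraries) or 1 of 3 siRNAs labelled siKDM6B N1, N2 and N33 (1 library each) for 72 h. BE2C cells were also given 2.5 µM GSK-J4, a cell-permeable inhibitor of KDM6 demethylases, for 0, 24 or 48 h (2 libraries each). CHLA15 and CHLA20 cells were treated with 300 nM and NB1643 and NB1691 cells with 3 µM palbociclib, an inhibitor of the cell-cycle kinases CDK4 and CDK6, for 72 h, beside untreated cells of each line (2 libraries in each of these 8 groups).

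No vehicle control at 24 or 48 h was named for GSK-J4, so time in culture and the inhibitor cannot be told apart there. In the palbociclib experiment the dose differed between the pairs of lines, so dose and line cannot be told apart either. The labels give no time and no vehicle for its untreated cells, so whether these were matched to the 72 h of treatment is not known. Each line is a single culture model, and the labels do not say whether replicate libraries came from separate cultures. The p-values therefore measure the spread between these libraries, which may be technical. The labels give cell lines as the source, although their extraction text speaks of xenograft tissue. The RNA came from whole samples, in which fewer cells of a type and less RNA per cell cannot be told apart.

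The libraries held between 36186567 and 93011010 counts on genes. Levels are given as counts per 1000000 counts of a library (CPM) after scaling by trimmed means of M-values, replicate 1 before replicate 2. In the palbociclib experiment NB1691 stood apart from the other lines. Its 8 mesenchymal markers summed to between 79060 and 100600 CPM, against 299.8 to 1358 CPM in the other lines, and its 10 adrenergic neuroblastoma markers to between 634.3 and 908.3 CPM, against 2593 to 3866 CPM. FN1 alone took 5.03% to 6.06% of the counts of the NB1691 libraries. Markers of leukocytes, epithelium and endothelium summed to at most 5.26 CPM in any palbociclib library and 3.58 CPM in any BE2C library.

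In GRCh37 coordinates of GENCODE v44lift37, MAX lies at chr14:65472892-65569413 on the minus strand. MXD1 lies at chr2:70124820-70170077 (plus), MXD3 at chr5:176728462-176739758 (minus) and MXD4 at chr4:2249159-2263836 (minus). MXI1 lies at chr10:111967363-112047123 (plus), MNT at chr17:2287367-2304398 (minus) and MGA at chr15:41913332-42065279 (plus). MLX lies at chr17:40719090-40725257 (plus) and MLXIP at chr12:122516628-122631894 (plus). Values of the whole gene are exonic counts, so UTR and coding exons enter together. The strand setting of the counting was not given in the sources used here, and MXD3 overlaps RAB24 on its own strand and PRELID1 on the other. MXD1 overlaps SNRNP27 and MXD4 overlaps MIR4800 on their own strands, and MYC overlaps CASC11, MAX overlaps FNTB and MLX overlaps PSMC3IP on the other, so reads in those stretches are uncertain between the genes.

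The proteins of this network bind the E-box CACGTG. RefSeq promoter windows of GRCh38.p14 (250 bases before to 50 after a start) were searched for all members but MYC, and 3 member promoters held that motif. They are shown because they are the searched members whose own promoters carry the letters that the network reads. Each is given 5′ to 3′ along its gene with the E-box in capitals. Counted from the start, the motif began at -238 in MXD4 (minus strand, chr4:2262330-2262359), at -193 in MNT (minus strand, chr17:2401236-2401265) and at -50 in MLX (plus strand, chr17:42567038-42567067).
MXD4: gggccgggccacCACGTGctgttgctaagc
MNT: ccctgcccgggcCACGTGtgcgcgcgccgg
MLX: gcgggcgcgggtCACGTGggcacgccaccc
The motif reads the same on both strands, and 7.26% of the 35116 promoter windows in the table held it. The variant CACGCG, searched on both strands, was held by 1 window each of MXD3, MXI1 and MGA and by 11.4% of all windows. Of the members, 9 were searched in this way. MYC was left out of the search, so whether its promoter holds either motif is not given here. With GSK-J4, MXD4 rose, MLX fell and MNT passed the test in neither direction, so the 3 genes with this motif shared no direction.

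MYC, at chr8:128747680-128755197 on the plus strand of GRCh37, was the member whose level differed most among the cell lines. Untreated CHLA15 libraries held MYC at 719 and 684 CPM and untreated CHLA20 libraries at 662 and 707 CPM. Untreated NB1691 cells held 72.9 and 66.2 CPM, and untreated NB1643 cells 0.60 and 0.0959 CPM, from 44 and 5 counts. The CHLA lines overlapped each other, and NB1691 and NB1643 lay below them and apart from each other.

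By edgeR's quasi-likelihood test, CHLA20 and CHLA15 differed in MYC by -0.03 on the log2 scale (SE 0.09, adjusted p = 0.892). NB1691 differed from CHLA15 by -3.34 (SE 0.10, adjusted p = 5.27e-16). For NB1643, whose MYC is near the floor of 3 counts, the fitted difference from CHLA15 of -10.81 is given as a description with no test. It was -12.79 without control replicate 1 and -10.14 without replicate 2. BE2C cells were close to NB1643 in this respect, with 0.373 and 0.321 CPM under siCtrl and 0.304 and 0.197 CPM at 0 h of the GSK-J4 series, although these tables were scaled apart from the palbociclib tables.

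MYCN ran opposite to MYC in the untreated lines, at 2.28 to 3.39 CPM in CHLA15 and CHLA20 and 3093 and 3257 CPM in NB1643. In NB1691 it was at 86.1 and 86.5 CPM, between the other lines as MYC was. MYCL, the third family member, was at 1.81 and 1.58 CPM in untreated CHLA15 and at 4.75 and 5.36 CPM in untreated NB1691. MLXIPL, the second partner that links MLX to sugar metabolism, was at most 0.106 CPM in any library and was not tested.

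**Figure D1:**
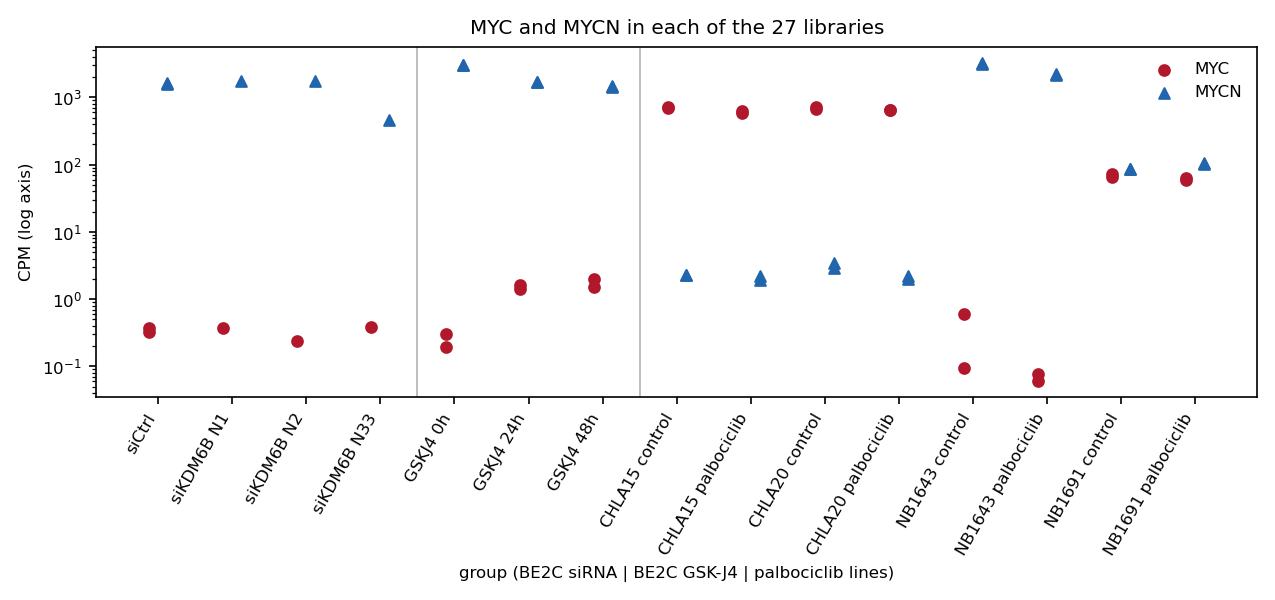
MYC (circles) and MYCN (triangles) in each of the 27 libraries, in CPM on a log axis (vertical), by group (horizontal), with 1 point per library. CHLA15 and CHLA20 lie at high MYC and low MYCN, BE2C and NB1643 the other way round, and NB1691 lies between them for both genes, with MYC at 72.9 and 66.2 CPM when untreated.

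Levels were compared between genes only per kilobase of the annotated MANE Select, canonical or appris principal transcript. On that scale MYC was the first of the 10 members in untreated CHLA15, at 188.5 CPM per kb, and in CHLA20, at 184.0 CPM per kb, with MLX next at 30.1 and 35.3 CPM per kb. In NB1691 it was the fifth, at 18.7 CPM per kb (the fourth with the length of all exons of the gene), and in NB1643 and BE2C the last, at under 0.1 CPM per kb.
MAX, the shared partner, was nearly level across lines, at 27.7 CPM per kb in CHLA15, 27 in CHLA20, 28.8 in NB1643 and 27 in NB1691, and passed the test in none of the 6 pairs of untreated lines.
MLX was the first member in BE2C and in NB1691. Ranks of MAX and MXD3 depended on the length used: MAX was the first member in NB1643 by transcript length and the fourth by exon length, and MXD3 has a transcript of 1067 bases within 4743 bases of exons.

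The sum of MYC, MYCN and MYCL per kb was set over MAX per kb in each library. It was 43.1 and 41.3 in untreated NB1643 and 48.7 and 49.8 in BE2C at 0 h, against 6.93 and 6.76 in CHLA15, 6.91 and 6.85 in CHLA20 and 2.11 and 1.85 in NB1691. MYC made up 99% to 99.3% of that sum in the CHLA lines, 36.3% and 34.0% in untreated NB1691 and under 0.1% in NB1643 and BE2C. The repressor side is MXD1, MXD3, MXD4, MXI1 and MNT per kb over MAX per kb. Among untreated, 0 h and siCtrl libraries it spanned a narrower range, from 1.92 in BE2C with siCtrl to 2.93 in untreated CHLA15. These are ratios of transcripts, not of proteins.

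Other members also differed between the untreated lines, beside a background in which 12.4% of all genes tested passed the test between CHLA20 and CHLA15, 64.6% between NB1643 and CHLA15, 64.5% between NB1643 and CHLA20, 78% between NB1691 and CHLA15, 77.5% between NB1691 and CHLA20 and 80.7% between NB1691 and NB1643. In CHLA20 against CHLA15, 4 of the 10 members passed. In NB1643, 7 passed against CHLA15 and 7 against CHLA20. In NB1691, 6 passed against CHLA15, 7 against CHLA20 and 8 against NB1643. The counts of the pairs with NB1643 include MYC, which is near the floor of counts there. These shares were near or below the background except in the pair of CHLA lines, whose 4 calls (MLX, MLXIP, MNT and MXD4) fell to between 0 and 3 when 1 library was left out.
MXI1, which recruits the SIN3 corepressor, was at 86.2 and 87.8 CPM in NB1643, 51.4 and 48.0 CPM in CHLA15, 51.4 and 49.1 CPM in CHLA20 and 23.2 and 21.9 CPM in NB1691. It was thus highest in the line with the least MYC, without overlap, and lowest in NB1691: NB1691 differed from NB1643 by -1.95 (SE 0.06, adjusted p = 5.05e-16).
MLX was lower in NB1643, at 43.6 and 43.5 CPM, than in CHLA15, at 70.6 and 71.7 CPM, by -0.71 (SE 0.07, adjusted p = 1.61e-08), and its partner MLXIP was lower there too, at 113 and 95.8 CPM against 198 and 191 CPM (-0.90, SE 0.07, adjusted p = 3.03e-09). MGA, the scaffold that joins MAX to a polycomb complex, was lowest in NB1691, at 38.4 and 39.8 CPM against 70.8 and 67.4 CPM in CHLA15 (-0.82, SE 0.09, adjusted p = 2.00e-07).
Differences of NB1691 from the other lines were read against the scaling. The median of all genes in its 3 comparisons was 0.083 to 0.128 as reported and -0.28 to -0.32 when libraries were scaled by their totals.

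Over the 8 group means of log2 CPM in the palbociclib experiment, the genes with the pattern most like that of MYC, among 15019 genes with a mean of at least 1 CPM, were MFNG (Pearson r = 0.998), WSCD1 (0.997), RABEP1 (0.996), BMP7 (0.996) and USP48 (0.995). BMP7, a secreted growth factor, was at a mean of 85.6 CPM in untreated CHLA15, 68.4 in CHLA20, 18.3 in NB1691 and 0.384 in NB1643. RABEP1 had a smaller span, from 99.3 CPM in NB1643 through 168.6 CPM in NB1691 to 209.8 CPM in CHLA15 and 227 CPM in CHLA20. The 8 means come from 4 lines, so the likeness rests on differences between lines and is given as a description. On the same 8 means MLX had r = 0.974 and MLXIP r = 0.955 with MYC, MXI1 r = -0.552 and MYCN r = -0.96. MLX was nonetheless nearly level between untreated NB1691 and CHLA15, at means of 70.4 and 71.1 CPM, where MYC was at 69.5 and 701.4 CPM.

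The GSK-J4 series asked what inhibition of KDM6 demethylases did to BE2C cells over time. Of the 10 members, 4 rose and 3 fell at 24 h, and 6 rose and 3 fell at 48 h, beside 55.3% of all genes tested that passed at 24 h (27.3% higher, 28% lower) and 71.5% at 48 h (37.1% higher, 34.4% lower). The members' median log2 change was 0.0149 at 24 h and 0.293 at 48 h, beside medians over all genes of 0.0141 and 0.0546. MYC, MXD1, MXD4 and MXI1 rose at both times, MAX, MXD3 and MLX fell at both, and MGA and MLXIP rose at 48 h. The counts of members above 0 h include MYC, which passed the filter through the treated libraries and whose rise is a description. Between 24 h and 48 h 4 members rose and 2 fell, beside 53.9% of all genes (25.9% higher, 28% lower). The 24 h and 48 h comparisons share the 0 h libraries.

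MYC rose from a low level. It was at 0.304 and 0.197 CPM at 0 h, from 11 and 7 counts, at 1.62 and 1.41 CPM at 24 h, from 77 and 66 counts, and at 2.02 and 1.52 CPM at 48 h, from 131 and 75 counts. All treated libraries lay above both 0 h libraries, and the 24 h and 48 h libraries overlapped. The fitted log2 change was 2.58 at 24 h and 2.82 at 48 h. Both are given as a description with no test, since MYC passed the filter through the treated libraries. Between 24 h and 48 h the change was 0.24 (adjusted p = 0.322). In the same libraries MYCN went from 3004 and 3027 CPM to 1669 and 1717 and then 1467 and 1433 CPM, so that MYC was 0.0966% and 0.0742% of the summed MYC family per kb at 48 h, and the family sum over MAX went from 48.7 and 49.8 through 30.8 and 30.6 to 25.2 and 25.5.

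MAX itself moved little, from 47.5 and 46.8 CPM at 0 h to 41.8 and 43.3 CPM at 24 h and 44.8 and 43.3 CPM at 48 h. Both later groups lay below the 0 h libraries. The changes were -0.15 at 24 h (SE 0.05, adjusted p = 0.00423) and -0.10 at 48 h (SE 0.04, adjusted p = 0.0458). Neither is firm: the 24 h call was lost without 24 h replicate 1 and with scaling by upper quartiles, and the 48 h value was 0.0127 with upper quartiles (where the median of all genes was 0.164 in place of 0.0546) and lost its call without either 0 h library or without 48 h replicate 2. Over the alternatives the adjusted p ranged from 0.00233 to 0.0595 at 24 h and from 0.0153 to 0.805 at 48 h.

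Among the MXD repressors, MXD1 and MXD4, which are known to come up as cells stop dividing and differentiate, rose, and MXD3, known from proliferating progenitor cells, fell.
MXD1 was at 9.88 and 9.63 CPM at 0 h, 17.9 and 17.6 CPM at 24 h and 19.1 and 18.8 CPM at 48 h. Its change was 0.86 at 24 h (SE 0.07, adjusted p = 3.64e-14) and 0.96 at 48 h (SE 0.07, adjusted p = 1.67e-16), and between 24 h and 48 h it was 0.09 (adjusted p = 0.195). Most of the difference was thus present by 24 h.
MXD4 was at 50.2 and 50.6 CPM, then 65.1 and 66.9, then 73.5 and 71.4 CPM. It rose by 0.39 at 24 h (SE 0.04, adjusted p = 2.13e-11) and by 0.52 at 48 h (SE 0.04, adjusted p = 3.47e-16). The further rise of 0.14 from 24 h to 48 h (adjusted p = 0.00166) lost its call without replicate 1 of either group (range over the alternatives 1.07e-05 to 0.0704).
MXD3 was at 15.2 and 15.6 CPM, then 8.73 and 8.49, then 5.93 and 6.90 CPM, with no overlap between the 3 times. Its change was -0.84 at 24 h (SE 0.08, adjusted p = 5.01e-12) and -1.27 at 48 h (SE 0.08, adjusted p = 4.77e-18), and from 24 h to 48 h it fell by 0.43 (adjusted p = 5.33e-05).

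MXI1 moved late. It was at 52.3 and 50.3 CPM at 0 h, 60.7 and 60.5 CPM at 24 h and 89.0 and 84.1 CPM at 48 h. The change was 0.24 at 24 h (SE 0.04, adjusted p = 2.96e-06) and 0.76 at 48 h (SE 0.04, adjusted p = 7.92e-22), of which 0.52 fell between 24 h and 48 h (adjusted p = 3.22e-16). MXI1 is a known target of the hypoxia-inducible factors.
MNT, the repressor that most cells express at a steady level, was at 9.91 and 9.60 CPM, then 9.02 and 8.39, then 8.77 and 9.84 CPM. These groups overlapped at 48 h, and MNT passed the test at neither time (-0.16, adjusted p = 0.12, and -0.08, adjusted p = 0.445).
MGA, the largest protein of the network, was at 246.5 and 256.2 CPM at 0 h, 255.8 and 259.8 CPM at 24 h and 302.9 and 308.7 CPM at 48 h. It overlapped the 0 h libraries at 24 h (0.04, adjusted p = 0.303) and rose by 0.28 at 48 h (SE 0.03, adjusted p = 6.10e-12).

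**Figure D2:**
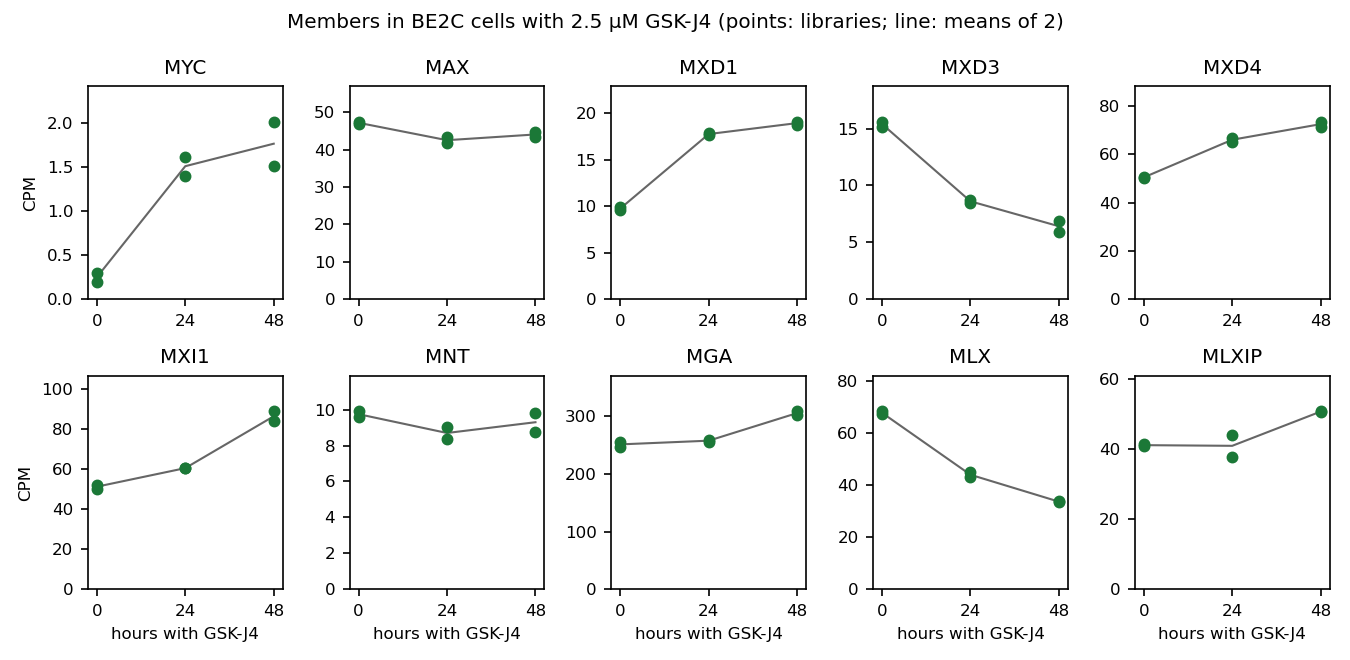
The 10 members in BE2C cells by hours with 2.5 µM GSK-J4 (horizontal), in CPM on axes from 0 that differ between genes (vertical), with 1 point per library and a line through the means of 2. MXD1, MXD4 and MXI1 are higher and MXD3 and MLX lower at 48 h than at 0 h without overlap, and MYC goes from 0.304 and 0.197 CPM to 2.02 and 1.52 CPM.

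The repressor transcripts changed in make-up and in their sum over MAX. MXD3 made up 30.9% and 31.9% of the MXD, MXI1 and MNT sum per kb at 0 h, 17.2% and 16.7% at 24 h and 10.0% and 11.9% at 48 h. The whole sum over MAX went from 1.95 and 1.97 through 2.29 and 2.21 to 2.49 and 2.53. These shares and sums depend on the length used. MXD3 has a transcript of 1067 bases within 4743 bases of exons, and its share would be lower with the exon lengths. The 6 proliferation markers, MKI67 among them, fell in the same libraries, all 6 at both times, from a sum of 2971 to 3024 CPM at 0 h to 2178 to 2196 CPM at 24 h and 1719 to 1726 CPM at 48 h, and their part in the change of MXD3 was not tested. Neuroblastoma state markers moved too. Of the 10 adrenergic markers 6 were lower and 4 higher at 24 h (median log2 change -0.162), and 9 were lower and 1 higher at 48 h (median -0.307). Their sum went from 3899 to 3964 CPM at 0 h through 4010 to 4022 CPM to 3302 to 3321 CPM. The 8 mesenchymal markers summed to 202.6 to 213.9 CPM at 0 h, 347.4 to 359.7 CPM at 24 h and 504.5 to 509.5 CPM at 48 h, with PRRX1 and TWIST2 at or under the floor throughout. Of the 5 that could be tested, 2 were higher and 2 lower at 24 h (median log2 change -0.312), and 3 were higher and 1 lower at 48 h (median 0.42). The rise of the sum at 24 h was thus not shared by most of these genes. The part of these markers in the changes of the members was not tested.

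MLX, the partner that MXD1, MXD4, MNT and MLXIP share, fell at both times. It was at 67.4 and 68.5 CPM at 0 h, 43.2 and 44.9 CPM at 24 h and 33.8 and 33.5 CPM at 48 h, with no overlap between times. The change was -0.62 at 24 h (SE 0.04, adjusted p = 2.60e-17) and -1.01 at 48 h (SE 0.04, adjusted p = 2.42e-25). Its partner MLXIP, which shuttles to the nucleus when sugar phosphates rise, was at 40.7 and 41.4 CPM at 0 h and overlapped those values at 24 h, at 37.7 and 44.1 CPM. At 48 h it was at 50.6 and 50.7 CPM, a rise of 0.30 (SE 0.05, adjusted p = 6.52e-07).

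The known targets of the MLX and MLXIP pair rose while MLX fell. All 5 genes listed passed the test as higher at 24 h and at 48 h, with a median log2 change of 1.23 and then 2.10.
TXNIP, an arrestin-like protein that limits glucose uptake and the best known target of this pair, was at a mean of 131.7 ± 2.19 CPM (SD, n = 2) at 0 h, 241.6 ± 1.24 CPM at 24 h and 410.9 ± 12.5 CPM at 48 h. It rose by 0.88 and 1.64 on the log2 scale. ARRDC4, its paralog, went from 29.5 ± 1.01 CPM through 69.3 ± 1.81 CPM to 134.2 ± 1.32 CPM, a rise of 1.23 and 2.19.
PFKFB3, which makes the activator of glycolysis fructose 2,6-bisphosphate, had the largest rise of the 5, from 19.9 ± 0.313 CPM through 64.6 ± 4.98 CPM to 133.9 ± 3.05 CPM (1.70 and 2.76). HK2, a hexokinase, rose by 1.55 and 1.92, and KLF10, a zinc-finger repressor, by 1.0 and 2.10. PFKFB3 and HK2 are also known targets of hypoxia-inducible factors, so the list is not specific to MLX.

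The genes that MYC proteins are known to raise mostly fell. Of 20 genes of ribosome biogenesis, 16 were lower and none higher at 24 h, and 17 were lower and 1 higher at 48 h, with medians of -0.333 and -0.616. UTP20, a factor for the small ribosomal subunit, went from 298.0 ± 12.5 CPM at 0 h to 123.0 ± 4.43 CPM at 48 h (-1.28), and RRP9 from 55.0 ± 1.29 to 25.6 ± 2.14 CPM (-1.11). NOP16 fell by 0.71 at 24 h. NPM1, the nucleolar protein nucleophosmin, was the exception, at 4313 ± 59.3 CPM at 0 h and 4794 ± 89.3 CPM at 48 h (0.15), and POLR1B, a subunit of RNA polymerase I, changed by -0.26.
Of 15 genes of nucleotide and polyamine synthesis, 11 were lower and 3 higher at 24 h and 12 were lower and 2 higher at 48 h (medians -0.259 and -0.464). NME1, a nucleoside diphosphate kinase, changed by -1.5 and SRM, the spermidine synthase, by -1.41 at 48 h. SHMT2, the mitochondrial serine hydroxymethyltransferase, rose by 1.28 at 24 h and 0.93 at 48 h, and IMPDH2 by 0.41 and 0.52.

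The corepressors through which MXD, MXI1 and MNT act split. Of 16 SIN3 and NCOR complex genes, 4 were higher and 6 lower at 24 h, and 7 higher and 8 lower at 48 h (medians -0.0358 and -0.155). BRMS1 changed by -1.0 and the histone-binding RBBP7 by -0.57 at 48 h, whereas ARID4B rose by 0.45 and ING2 by 0.44. These lists were chosen with earlier results of these data known, and their counts are given beside the 55.3% and 71.5% of all genes that passed.

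**Figure D3:**
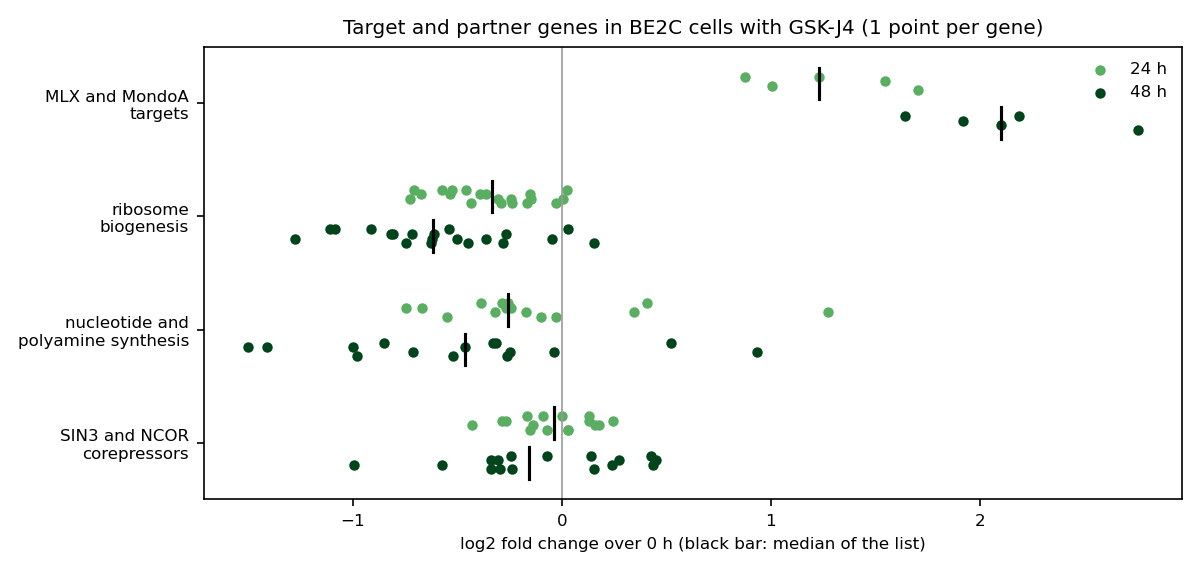
Log2 fold change over 0 h (horizontal) of each gene of 4 lists at 24 h (light) and 48 h (dark) of GSK-J4, with 1 point per gene and a black bar at the median of the list. All 5 MLX and MLXIP (MondoA) targets lie above 0 at both times, with medians of 1.23 and 2.10, and most genes of ribosome biogenesis and of nucleotide and polyamine synthesis lie below 0.

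The palbociclib experiment asked what inhibition of CDK4 and CDK6 did in the 4 lines. In CHLA15, 3 members rose and 1 fell, beside 29.8% of all genes tested that passed there (14.2% higher, 15.6% lower). In CHLA20, 4 rose and 1 fell (29.6% of all genes, 13.7% higher and 15.9% lower), in NB1643, 3 rose and 2 fell (39.9%, 20.3% higher and 19.7% lower; 1 of the 2 is MYC, near the floor of counts), and in NB1691, 4 rose and 2 fell (32.8%, 17.4% higher and 15.5% lower). The members' medians were 0.0653, 0.0682, 0.0266 and 0.0305, beside medians over all genes of -0.00209, 0, 0 and 0.019. MAX, MXD1 and MXD4 rose and MXD3 fell in each of the 4 lines. The lines share no libraries, but their 8 groups were fitted together with 1 estimate of spread. CHLA15 and CHLA20 were also the most alike pair, with 12.4% of all genes past the test between them when untreated.

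MXD3 showed the widest span. In NB1643 it went from 24.4 and 23.3 CPM in untreated cells to 1.52 and 1.41 CPM with palbociclib, and in NB1691 from 18.5 and 17.7 CPM to 4.30 and 3.59 CPM. In CHLA15 it went from 28.7 and 30.3 CPM to 15.2 and 13.9 CPM and in CHLA20 from 26.1 and 30.1 CPM to 15.9 and 17.0 CPM. Treated and untreated libraries did not overlap in any line. The log2 changes were -4.02 in NB1643 (SE 0.11, adjusted p = 1.90e-15), -2.19 in NB1691 (SE 0.10, adjusted p = 2.86e-12), -1.02 in CHLA15 (SE 0.08, adjusted p = 3.33e-08) and -0.77 in CHLA20 (SE 0.08, adjusted p = 7.47e-07). The effect differed between the lines (line by treatment interaction, adjusted p = 1.01e-11, beside 38% of all genes that passed this test).

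MXD4 was at 75.0 and 62.0 CPM in untreated NB1643 and 161 and 154 CPM with palbociclib. In CHLA20 it went from 88.3 and 87.9 CPM to 160.3 and 163 CPM, in CHLA15 from 102.6 and 102.7 CPM to 164 and 157 CPM and in NB1691 from 100.4 and 98.7 CPM to 141 and 136 CPM. The changes were 1.2 (SE 0.07, adjusted p = 5.68e-11) in NB1643, 0.88 (SE 0.07, adjusted p = 1.19e-08) in CHLA20, 0.64 (SE 0.07, adjusted p = 6.04e-07) in CHLA15 and 0.48 (SE 0.07, adjusted p = 1.55e-05) in NB1691. The treated levels were closer to each other than the untreated ones in CHLA15, CHLA20 and NB1643. The interaction had an adjusted p of 3.73e-05.

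MXD1 rose in all 4 lines without overlap. It was at 17.1 and 17.2 CPM in untreated CHLA15 and 31.0 and 32.8 CPM with palbociclib, at 16.6 and 14.8 against 30.9 and 29.1 CPM in CHLA20, at 16.8 and 16.8 against 30.4 and 29.7 CPM in NB1643 and at 11.8 and 12.2 against 17.2 and 15.9 CPM in NB1691. The changes were 0.89, 0.93 and 0.84 (each SE 0.07) in the first 3 lines, with adjusted p of 1.54e-08, 8.01e-09 and 1.33e-08, and 0.46 in NB1691 (SE 0.07, adjusted p = 6.15e-05). NB1691 had the smallest rise (interaction adjusted p = 0.00302).

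MAX rose by a smaller and similar amount in each line. In NB1691 it went from 51.5 and 57.1 CPM to 70.0 and 66.2 CPM (0.33, SE 0.07, adjusted p = 7.52e-04) and in NB1643 from 55.2 and 60.7 to 72.6 and 67.5 CPM (0.28, SE 0.07, adjusted p = 0.00232). In CHLA15 it went from 56.5 and 55.0 to 65.4 and 62.7 CPM and in CHLA20 from 52.3 and 56.4 to 63.5 and 61.7 CPM, a change of 0.20 in both (SE 0.07, adjusted p = 0.0275 and 0.0245). Treated and untreated libraries overlapped in no line, but the CHLA15 call was lost on leaving out any 1 of its 4 libraries and the CHLA20 call on leaving out control replicate 1 or either treated library. A difference between lines did not pass the test (interaction adjusted p = 0.594).

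**Figure D4:**
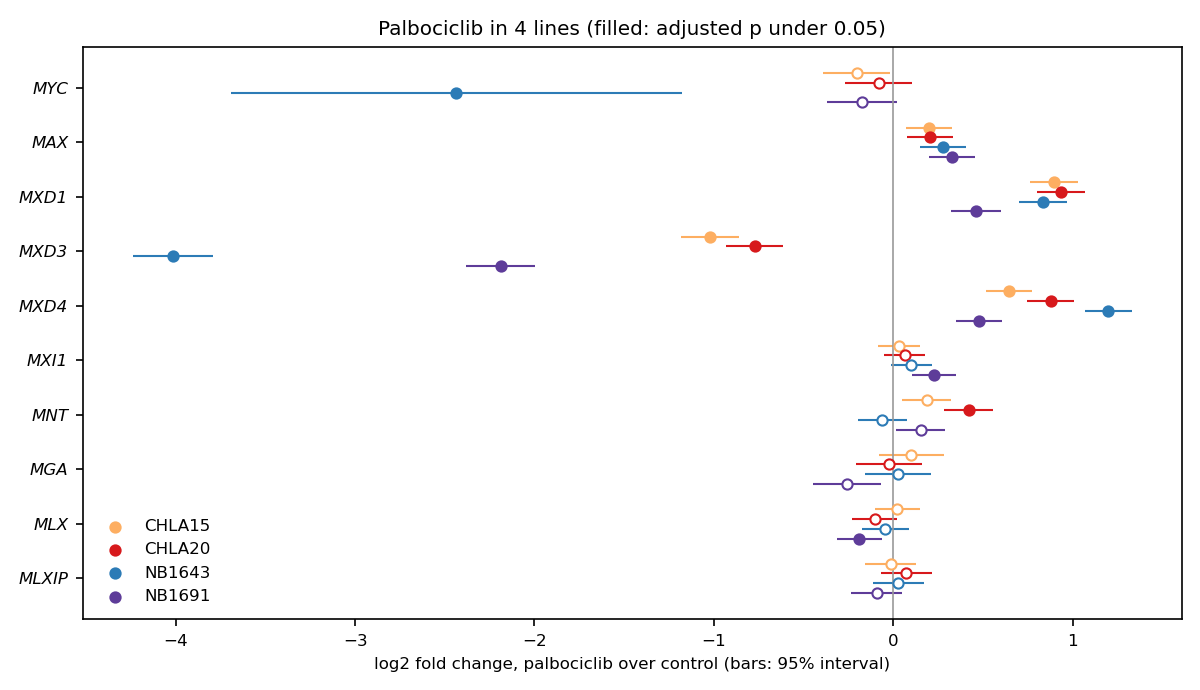
Log2 fold change of palbociclib-treated over untreated cells (horizontal) for the 10 members in CHLA15, CHLA20, NB1643 and NB1691 (colors), with bars for the 95% interval and filled points for an adjusted p under 0.05. MAX, MXD1 and MXD4 lie above 0 and MXD3 below 0 in all 4 lines, with MXD3 at -4.02 in NB1643, and the interval of MYC in NB1643 is the widest.

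In CHLA15, CHLA20 and NB1691, MYC changed less with palbociclib than it differed between the CHLA lines and NB1691. In CHLA15 it was at 719 and 684 CPM untreated and 622 and 595 CPM treated (-0.20, SE 0.09, adjusted p = 0.119), in CHLA20 at 662 and 707 against 646 and 649 CPM (-0.08, SE 0.09, adjusted p = 0.594) and in NB1691 at 72.9 and 66.2 against 64.0 and 59.3 CPM (-0.17, SE 0.10, adjusted p = 0.205). The treated libraries lay below the untreated ones in each of these lines, without passing the test as reported. MYC was past the test in 5 of 11 alternatives in CHLA15 (change -0.242 to -0.173) and in 4 of 11 in NB1691 (-0.256 to -0.102). In CHLA20 it was past the test in 0 of 11 (-0.146 to -0.0468). Whether MYC fell in CHLA15 and NB1691 thus depends on the processing.
In NB1643, where MYC is near the floor of detection, it was at 0.60 and 0.0959 CPM (44 and 5 counts) untreated and 0.0767 and 0.0615 CPM (5 and 3 counts) treated. The fit called MYC lower (-2.44), but that call rested on the 44 counts of control replicate 1: without it the change was -0.44 (adjusted p = 0.739, range over the alternatives 8.23e-07 to 0.739). At these counts no fall of MYC is read from the fit. Over both untreated libraries the ratio of treated to untreated MYC was 0.176 (95% interval 0.0720 to 0.375), and against control replicate 2 alone it was 0.730 (0.211 to 2.84). These intervals cover counting error only. The interaction for MYC had an adjusted p of 0.0459 and lost its call in 16 of 22 alternatives (range 2.55e-07 to 0.579).

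Of the other members, MNT passed the test in CHLA20 and MXI1 and MLX in NB1691. MNT was at 38.6 and 34.8 CPM in untreated CHLA20 and 50.8 and 47.4 CPM with palbociclib, a rise of 0.42 (SE 0.07, adjusted p = 1.41e-04), and its change was 0.19 in CHLA15 (adjusted p = 0.0515, past the test in 7 of 12 alternatives, range 0.0227 to 0.465), -0.06 in NB1643 (adjusted p = 0.55) and 0.15 in NB1691 (adjusted p = 0.109), with an interaction adjusted p of 0.00675. In NB1691, MXI1 was at 23.2 and 21.9 CPM untreated and 27.8 and 24.9 CPM treated (0.23, SE 0.06, adjusted p = 0.0092), and MLX at 69.6 and 71.2 CPM against 63.2 and 60.4 CPM (-0.19, SE 0.06, adjusted p = 0.0306).
The MLX call was lost on leaving out any 1 of the 4 NB1691 libraries, and the MXI1 call without treated replicate 1 or control replicate 2.
MGA and MLXIP passed the test in no line. MGA was at 38.4 and 39.8 CPM in untreated NB1691 and 31.7 and 33.8 CPM with palbociclib (-0.26, adjusted p = 0.0501, past the test in 4 of 12 alternatives, range 4.68e-05 to 0.26), without overlap, and MLXIP changed by between -0.09 and 0.07. Interaction tests of MXI1 (adjusted p = 0.262), MGA (0.163), MLX (0.266) and MLXIP (0.566) did not pass.

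Within the repressor sum per kb, MXD3 went from 28.8% and 29.2% to 1.69% and 1.62% in NB1643 and from 28.8% and 28.1% to 6.63% and 5.83% in NB1691. MXD4 went from 24.4% and 21.4% to 49.2% and 48.9% in NB1643, from 43.2% and 43.2% to 60.2% and 61% in NB1691 and from 32.8% and 33.1% to 48.7% and 48.2% in CHLA15. With palbociclib MXD4 was the largest part of that sum in each of these lines, as it already was in untreated NB1691. These shares use transcript lengths too, and that of MXD3 would be lower with exon lengths. With exon lengths MXD4 was also the first of these repressors in untreated CHLA15.
The 6 proliferation markers fell in all 6 genes in CHLA20, NB1643 and NB1691 and in 4 in CHLA15. Their sum went from 1429 to 1452 CPM down to 161.9 to 163.4 CPM in NB1643 and from 1056 to 1075 CPM down to 164.9 to 180.0 CPM in NB1691, but only from 2547 to 2600 CPM down to 1907 to 2033 CPM in CHLA15. The lines in which these markers fell further, NB1643 and NB1691, were those in which MXD3 fell further, and the part of these genes in the change of MXD3 was not tested. Median log2 changes of the 6 markers were -0.24, -0.54, -3.14 and -3.14 in CHLA15, CHLA20, NB1643 and NB1691.

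The targets that had moved together under GSK-J4 were read in the palbociclib experiment too, where 14.2%, 13.7%, 20.3% and 17.4% of all genes rose and 15.6%, 15.9%, 19.7% and 15.5% fell in CHLA15, CHLA20, NB1643 and NB1691. Of the 5 MLX and MLXIP targets, none rose and 2 fell in CHLA15 and in CHLA20, 2 rose and 1 fell in NB1643 and 1 rose and 2 fell in NB1691. TXNIP changed by -0.34, -0.35, 0.38 and -0.24 in CHLA15, CHLA20, NB1643 and NB1691, each past the test. Among the 20 ribosome biogenesis genes, 4, 7, 7 and 13 fell in the 4 lines and 1, 0, 1 and 0 rose (medians 0.0138, -0.088, -0.136 and -0.208), with UTP20 at -0.53 and FBL at -0.50 in NB1691.
Of the 15 nucleotide and polyamine genes, 6, 9, 12 and 10 fell and 2, 0, 0 and 0 rose (medians -0.102, -0.235, -0.408 and -0.271). SHMT2, which had risen with GSK-J4, changed by -1.70 in CHLA15, -1.44 in CHLA20 and -0.92 in NB1643 and was at 0.13 (adjusted p = 0.118) in NB1691. NME1, among the genes that fell most with GSK-J4, rose by 0.51 in CHLA15. The difference between the 2 experiments was not tested, since their tables were fitted apart.
Of the 16 corepressor genes, 4, 5, 9 and 8 fell in the 4 lines and 1 rose, SIN3B in NB1643 (0.36). ING2 changed by -1.13 and SAP30 by -0.82 in NB1643.

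The siRNA experiment asked what depletion of KDM6B did in BE2C cells. The transcript of the targeted gene was not lower in the libraries labelled siKDM6B: KDM6B was at 6.47 and 8.76 CPM in the control libraries, and its levels for N1, N2 and N33 were 8.99, 7.11 and 8.26 CPM in turn (log2 change 0.09, SE 0.30, adjusted p = 0.945). The paper reports knockdown of KDM6B in BE2C cells beside western blots, with a loss of colonies that went with its efficiency. Protein was not measured in these libraries. The siRNAs N1, N2 and N33 had 1 library each and were pooled as 1 group, so the spread in this test includes differences between siRNAs. No siRNA was tested alone. None of the 10 members passed the test, beside 0% of all genes tested in this comparison. The smallest adjusted p was 0.279 there, and 1615 of 17472 genes had an unadjusted p under 0.05, MXD1 and MXD3 among them. DESeq2 called 164 genes and limma-voom 0 in this comparison, with no member in either. That the paired files of a siRNA are runs of 1 library is taken from their numbering and counts, since the labels do not state it. With each file counted as a sample, 2354 genes were called, MXD1 (adjusted p = 0.0132, range over the alternatives 0.0132 to 1) and MXD3 (0.0283, range 0.0283 to 1) among them, but runs of 1 library would not be replicates.

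MXD1 was at 11.7 and 11.7 CPM with siCtrl. For N1, N2 and N33 it was at 22.8, 14.7 and 23.4 CPM, all above siCtrl (0.80, SE 0.30, adjusted p = 0.523). MXD3 was at 14.3 and 13.9 CPM against 6.79, 7.60 and 2.34 CPM, all below siCtrl (-1.34, SE 0.50, adjusted p = 0.523). MLXIP spread widely, at 20.4 and 26 CPM against 29.0, 52.7 and 25.2 CPM, so that the groups overlapped (0.62, adjusted p = 0.648). MYC was at 0.379, 0.236 and 0.386 CPM in the libraries labelled siKDM6B, on both sides of 0.373 and 0.321 CPM with siCtrl (-0.06, adjusted p = 0.979).

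The library labelled N33 stood apart from the other 4. It held MLX at 36.8 CPM, against 73.8 to 84.7 CPM in the others, MNT at 5.62 CPM, against 8.56 to 11.6 CPM, and MYCN at 465.6 CPM, against 1596 to 1742 CPM. Its proliferation markers summed to 642.5 CPM, against 1744 to 2376 CPM, and its adrenergic markers to 968.0 CPM, against 2444 to 3167 CPM. No member passed the test with it left out. MXD4 was high in the library labelled N1 alone, at 98.0 CPM, against 50.9 to 57 CPM in the others. Of the members, the 3 siRNAs had a common direction against siCtrl in MXD1, MXD3 and MGA, the last at 232.8, 208.9 and 171.1 CPM against 168.9 and 167.8 CPM.

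**Figure D5:**
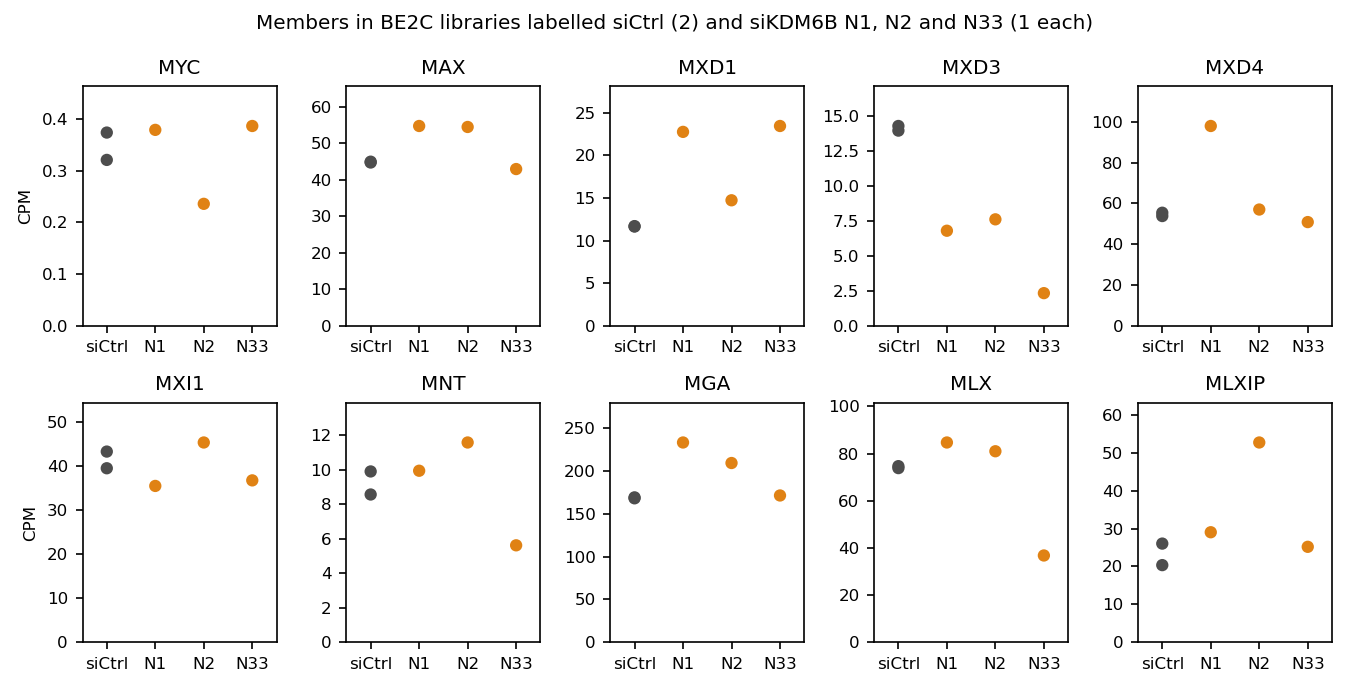
The 10 members in BE2C libraries labelled siCtrl (2) and siKDM6B N1, N2 and N33 (1 each), in CPM on axes from 0 that differ between genes, with 1 point per library. MXD1 lies above and MXD3 below both siCtrl libraries for all 3 siRNAs, and N33 holds the lowest MLX, at 36.8 CPM.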

How the data were processed

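Total RNA from neuroblastoma cell lines was sequenced as paired ends. The authors deposited 1 table of raw read counts per gene symbol for each run, and these counts are not normalized. Per the labels, reads were aligned to GRCh37 (hg19) with STAR 2.5.3a after CASAVA and counted with HTSeq; the study's methods name an in-house mapping pipeline and a GENCODE release of mouse numbering, although the symbols are human, and the strand setting of the counting was not given in the sources used here. The 22 tables of BE2C cells were taken as repeat runs and summed in pairs to 11 libraries, an assumption for the pair of tables of each siKDM6B siRNA, which the labels do not describe; the palbociclib experiment held 16 tables of 1 library each. Tables so paired differed less (chi-square per degree of freedom 1.48 to 1.65) than replicate libraries of the same experiment (1.89 to 4.33 in BE2C cells, 2.22 to 24.3 in the palbociclib experiment, where the untreated NB1643 and CHLA20 pairs, at 24.3 and 19.2, lay above the other 6, at 2.22 to 7.14). Depth was 41227956 to 50776662 counts in the siRNA libraries, 36186567 to 63433818 in the GSK-J4 libraries and 45457371 to 93011010 in the palbociclib libraries, and 3 counts, the floor used, came to at most 0.0829 CPM.

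Each experiment was fitted over all its groups with edgeR 4.0.16 (R 4.3.3): trimmed mean of M-values scaling, filterByExpr and a quasi-likelihood F test, two-sided, with Benjamini-Hochberg adjusted p called at 0.05 over all 17472, 17734 and 22133 genes tested in the siRNA, GSK-J4 and palbociclib experiments. The 3 siRNAs labelled siKDM6B were pooled as 1 group of 3, since each has 1 library. The study's own test was limma-voom. The fits were tested on simulated data. Alternatives were DESeq2 1.42.0, limma-voom (limma 3.58.1), scaling by library totals or upper quartiles, a filter of only 1 count or of 10 counts per library, each run as a sample, the compared groups alone, a replicate block and leaving out each library. CPM per kb used GENCODE v44lift37 transcript lengths; tables and figures were made with Python 3.11.15, pandas 2.3.3, numpy 2.4.6 and matplotlib 3.10.9.

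The text names the 10 members, MYCN, MYCL, MLXIPL, the siRNA target KDM6B, the 2 lowest and 2 highest called genes of each list in a comparison described for that list, and the 5 genes with the highest Pearson r with MYC. Values of a gene so named are also given for other times or lines, and the 5 targets of MLX are all named. The members and gene lists were chosen with earlier results of these data known. Counts and medians of the lists are descriptions.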

Additional observations from a re-analysis of the deposited data

Results flagged for a closer look

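The effect of palbociclib differed between the 4 lines for 5 of the 10 members, beside 38% of all genes, by the line by treatment interaction in edgeR's quasi-likelihood test. Dose and line cannot be told apart in it, since CHLA15 and CHLA20 had 300 nM and NB1643 and NB1691 had 3 µM. MXD3 had an adjusted p of 1.01e-11, with log2 changes of -1.02, -0.77, -4.02 and -2.19 in CHLA15, CHLA20, NB1643 and NB1691. MXD4 had an adjusted p of 3.73e-05, with changes of 0.64, 0.88, 1.2 and 0.48 in the same order. MXD1 had an adjusted p of 0.00302, with changes of 0.89, 0.93, 0.84 and 0.46. MNT had an adjusted p of 0.00675, with changes of 0.19, 0.42, -0.06 and 0.15. The calls of these 4 genes held under every alternative run. MYC had an adjusted p of 0.0459, with changes of -0.20, -0.08, -2.44 and -0.17, of which the NB1643 value rests on counts near the floor, and without NB1643 control replicate 1, which held 44 of the 49 MYC counts of untreated NB1643 cells, the adjusted p was 0.579 (range over the alternatives 2.55e-07 to 0.579).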

How the results depend on the processing

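Of 150 tests of members, 86 passed as reported, and 67 of these kept their call and direction under every alternative run, while 19 lost the call under at least 1. Of the 64 that did not pass, 26 passed under some alternative. A further count of 29 tests that passed in neither fit changed sign. The cause was not tested for any of the following. With each run as a sample, 2 members passed in the siRNA comparison (2354 genes against 0 as reported). With upper quartiles MAX was 0.0127 at 48 h of GSK-J4. With the compared groups alone, 10 members passed for palbociclib in NB1691 (10320 genes against 7269) and 0 between CHLA20 and CHLA15 (1285 genes against 2736). Leaving out 1 library gave 0 to 3 members in that pair (1130 to 4012 genes), 0 without CHLA15 control replicate 1 or CHLA20 control replicate 2. With library totals 10 members passed between NB1691 and CHLA15, and against CHLA20 NB1691 was lower in MXD4 (-0.228), MNT (-0.274) and MLXIP (-0.341), each the other way as reported.

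The replicate numbers did not pair the samples: deviations of same-numbered libraries correlated by -0.0628 to 0.0483. With a replicate block 0 members passed between CHLA20 and CHLA15 (1366 genes), and over all comparisons 6 calls of members were lost and 6 gained. No paired analysis was possible for the siRNA comparison because its groups share fewer than 2 replicate numbers. With at least 10 counts in every library MYC left the palbociclib and the GSK-J4 fits and gave no value in either. Depth limited MYC in NB1643 and BE2C cells, where single libraries held between 3 and 44 counts of it when untreated or treated with palbociclib or siRNA.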

Other observations

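Of 10 genes whose proteins set how long MYC and MYCN last, 4 were higher and 5 lower at both 24 h and 48 h of GSK-J4 (medians -0.0648 and -0.241). For this and the lists that follow, 55.3% of all genes passed at 24 h and 71.5% at 48 h, and with palbociclib 14.2%, 13.7%, 20.3% and 17.4% of all genes rose and 15.6%, 15.9%, 19.7% and 15.5% fell in CHLA15, CHLA20, NB1643 and NB1691. AURKA, a mitotic kinase that shields MYCN from degradation, went from a mean of 134.1 CPM at 0 h through 71.4 CPM to 44.5 CPM (-0.91 and -1.59). KIAA1524 (CIP2A), an inhibitor of the phosphatase PP2A, changed by -0.27 and -0.80. USP36, a deubiquitinase of MYC, rose by 0.22 and 0.33, and GSK3B, the kinase that marks MYC for the proteasome, was at 0.05 at 24 h without passing the test and rose by 0.34 at 48 h. With palbociclib AURKA changed by -0.44, -0.65, -2.64 and -2.38 in CHLA15, CHLA20, NB1643 and NB1691, and GSK3B rose by 0.38, 0.33, 0.41 and 0.25. AURKA is also a gene of dividing cells, and the proliferation markers fell in the same libraries; their part in its change was not tested.

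Of 12 coactivators that MYC recruits, 2 rose and 3 fell at 24 h and 4 rose and 6 fell at 48 h of GSK-J4 (medians -0.0394 and -0.0356). RUVBL1, an ATPase of chromatin remodellers, changed by -0.54 and -1.21 and ACTL6A by -0.48 and -0.87, while EP400, the large ATPase of a TIP60 complex, rose by 0.39 and 0.66 and ING3 by 0.30 at 48 h. With palbociclib 4, 6, 6 and 11 of the 12 fell in the 4 lines and none rose, with ACTL6A at -0.48 and RUVBL2 at -0.44 in NB1691.

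The partners of MGA and MAX in the polycomb complex PRC1.6 split: 1 rose and 4 fell of 9 at 24 h, and 4 rose and 3 fell at 48 h of GSK-J4 (medians -0.0734 and 0.0692). L3MBTL2, a reader of the complex, changed by -0.23 and -0.69, and RYBP rose by 0.42 and YAF2 by 0.23 at 48 h. With palbociclib 1, 1, 2 and 1 of the 9 rose and 0, 2, 3 and 3 fell, and RYBP rose in each line, by 0.18, 0.30, 0.21 and 0.27.

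Among 6 genes that MYC proteins are known to repress, 3 rose at 24 h, and 4 rose and 1 fell at 48 h of GSK-J4 (medians 0.471 and 0.734). NDRG1, a stress-response gene, went from a mean of 2.64 CPM through 48.4 CPM to 183.7 CPM (4.20 and 6.12), and CDKN1A, which encodes the cell-cycle inhibitor p21, from 8.05 CPM to 44.9 and 44.5 CPM (2.48 and 2.47). NDRG2 was the gene that fell, by 0.25 at 48 h. With palbociclib CDKN1A changed by -0.62, -0.47, -0.18 and -0.95 in CHLA15, CHLA20, NB1643 and NB1691.

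MYCL, which like MYC pairs with MAX, was at 5.02 and 5.24 CPM at 0 h and 2.78 and 2.43 CPM at 48 h of GSK-J4 (-0.97, SE 0.13, adjusted p = 5.87e-09), opposite in direction to MYC in the same libraries. With palbociclib it rose in CHLA15 (0.51, adjusted p = 0.0246) and NB1691 (0.69, adjusted p = 5.99e-04). None of the genes of these lists passed the test in the siRNA comparison (edgeR; the counts over all genes stand with that comparison).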
